A study of Mus musculus with 2 samples.

Results

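Shh, Foxa1, Foxa2, Spon1 and Ntn1 are genes of the floor plate, the strip of cells along the ventral midline of the neural tube, and some of them are also used in p3 progenitors, which lie next to it. Accessible intervals were taken as belonging to them if the nearest transcription start of a protein-coding gene was one of theirs, which gave 132 of 119502 intervals. Of these, 16 lay nearest to Shh, 17 to Foxa1, 41 to Foxa2, 22 to Spon1 and 36 to Ntn1. The assignment uses positions only, but the 5 genes were chosen with earlier results of these data known.

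The intervals came from live-cell ATAC-seq, in which the transposase Tn5 inserts sequencing adapters into open chromatin. Mouse embryonic stem cells of the Olig2-mKate2 line carried the red fluorescent protein mKate2 as a reporter of Olig2, a transcription factor of motor neuron progenitors (pMN). They were kept on mouse embryo fibroblast feeders, differentiated with bFGF and LGK, then with bFGF, CHIR99021, SB-431542 and DMH1, and finally to day 5 with 100 nM retinoic acid (RA) and 100 nM SAG, an agonist of the Shh pathway. mKate2-positive cells were sorted and 50000 entered each transposition. The design held 1 group of 2 replicate libraries, all with this reporter and this treatment, so no condition could be compared. The labels do not state whether the replicates came from separate cultures, so the spread between them may be technical. The sort selected for the reporter of a pMN gene, and none of the 5 genes was used in it.

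As background, Shh is the secreted morphogen that the notochord and floor plate release and that patterns the ventral neural tube. FOXA2 and FOXA1 are forkhead transcription factors that can bind their sites in closed chromatin and are known as regulators of the floor plate, where Shh is among their targets. Ntn1 encodes netrin 1, a guidance cue that attracts commissural axons to the midline, and Spon1 encodes F-spondin, a matrix protein that the floor plate secretes.

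The libraries held 31876165 and 31672240 fragment counts in intervals. An interval over a start was found for 66.7% of 21924 protein-coding genes. Raw counts were divided by size factors, and density is the normalised count per kb of interval. Starts of marker genes were checked for 5 lists. An interval lay over a start of 2 of 2 p3 markers, 3 of 5 floor plate markers (Shh and Foxa2 among the 5), 4 of 4 markers of new motor neurons, 3 of 6 of endoderm and notochord, and 3 of 4 of fibroblasts, for the feeders. Densities at the start ranged from 879 to 942 in p3 markers, 236 to 584 in floor plate markers, 399 to 1087 in motor neuron markers, 89.0 to 569 in endoderm and notochord markers and 123 to 307 in fibroblast markers. The endoderm marker Foxa3 had no interval at all. The part of these cell types in the values below was not tested. In sorted bulk cells, fewer cells with an open site and a less open site in each cell cannot be told apart.

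The promoters of the forkhead genes come first: the interval at the Foxa2 starts covered the inner start and ended 277 bp short of the outermost one. Signal between intervals was not read, and weak open sites were left out of the intervals. The outer start was therefore not shown to be closed. The promoter sequences below were credited to RefSeq (GRCm38.p6, the assembly of mm10), which matched 2 of the 5 genes. They run 5′ to 3′ on the strand of the gene, with annotated UTR bases left out. The Foxa2 stretch at the outer start is chr2:148046970-148047219 and lay in no interval. That at the inner start is chr2:148045949-148046198 and lay wholly inside an interval. The Foxa1 stretch is chr12:57546122-57546361, and its capitals mark the only forkhead match in the 3 stretches, read on the opposite strand.
Foxa2 outer promoter: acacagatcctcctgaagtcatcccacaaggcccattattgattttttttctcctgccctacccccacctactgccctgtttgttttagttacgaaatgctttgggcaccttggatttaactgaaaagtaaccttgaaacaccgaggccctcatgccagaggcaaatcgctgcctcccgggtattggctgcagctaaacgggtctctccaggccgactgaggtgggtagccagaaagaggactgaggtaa
Foxa2 inner promoter: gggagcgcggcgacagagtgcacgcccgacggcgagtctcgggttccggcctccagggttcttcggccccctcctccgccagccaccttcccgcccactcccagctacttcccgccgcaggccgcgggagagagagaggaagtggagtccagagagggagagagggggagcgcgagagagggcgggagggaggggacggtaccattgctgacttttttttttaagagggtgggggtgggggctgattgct
Foxa1 promoter: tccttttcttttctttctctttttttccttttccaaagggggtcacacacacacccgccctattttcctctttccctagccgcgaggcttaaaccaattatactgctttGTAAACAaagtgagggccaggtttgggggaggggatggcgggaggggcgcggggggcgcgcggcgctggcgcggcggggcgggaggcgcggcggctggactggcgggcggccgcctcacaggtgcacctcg

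The inner Foxa2 stretch had a GC content of 67.2% and 20 CpG dinucleotides, and the outer one had 50.8% and 6. A further RefSeq window of Foxa2, chr2:148045415-148045714, also lay wholly inside that interval, and it had 51.7% and 13, so GC content did not separate the covered windows from the uncovered one. Over all 32851 RefSeq promoter windows of 300 bases, 3.65% held the forkhead letters TGTTTAC on either strand.

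The densest interval of each gene is shown next, since it held the highest signal per kb of its locus. In normalised counts, the start intervals of Foxa1 and Spon1 were higher than their densest ones. The 200 bases at the centre of each are given on the plus strand, from the RefSeq sequence of GRCm38.p6. The centre is not the summit of the signal, which the counts do not give. Capitals mark any match to 1 of the 8 short motifs that are described further on.
Shh, chr5:28568166-28568365: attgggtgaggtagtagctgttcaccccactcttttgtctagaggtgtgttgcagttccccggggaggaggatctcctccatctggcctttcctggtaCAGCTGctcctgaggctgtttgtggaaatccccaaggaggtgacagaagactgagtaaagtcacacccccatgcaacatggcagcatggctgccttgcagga
Foxa1, chr12:57539200-57539399: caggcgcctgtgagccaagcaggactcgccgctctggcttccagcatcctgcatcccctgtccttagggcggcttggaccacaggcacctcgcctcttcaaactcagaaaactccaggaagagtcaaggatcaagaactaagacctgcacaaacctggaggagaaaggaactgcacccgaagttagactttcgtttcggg
Foxa2, chr2:147876907-147877106: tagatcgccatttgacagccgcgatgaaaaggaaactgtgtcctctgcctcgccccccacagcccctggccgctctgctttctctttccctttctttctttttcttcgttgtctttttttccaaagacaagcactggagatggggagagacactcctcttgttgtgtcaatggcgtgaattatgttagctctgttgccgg
Spon1, chr7:113814197-113814396: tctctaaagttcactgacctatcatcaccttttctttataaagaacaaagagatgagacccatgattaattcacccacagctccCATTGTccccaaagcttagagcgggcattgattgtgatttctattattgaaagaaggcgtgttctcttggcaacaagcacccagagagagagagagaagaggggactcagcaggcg
Ntn1, chr11:68399960-68400159: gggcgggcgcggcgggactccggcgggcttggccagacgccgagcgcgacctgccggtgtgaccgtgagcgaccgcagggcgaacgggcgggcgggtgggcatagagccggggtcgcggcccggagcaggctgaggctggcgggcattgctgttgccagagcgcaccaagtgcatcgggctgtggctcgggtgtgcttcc

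The Ntn1 stretch, next to a start, had a GC content of 75%, and the other 4 had between 44.5% for Spon1 and 56.0% for Foxa1. A single E-box and a single SOX match lay in the Shh and Spon1 stretches, and those of Foxa1, Foxa2 and Ntn1 held none of the 8 motifs.

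Each gene had between 16 and 41 intervals, against a median of 3 over genes. The share of normalised counts in intervals over 100 kb from a start differed between the genes. It was 5.10% at Spon1, 16.3% at Foxa1, 30.9% at Ntn1, 36.5% at Shh and 40.6% at Foxa2. Of the 132 intervals, 60 (45.5%) had a mean normalised count over 100, the limit set here on the base mean, against 38.8% of all intervals. Leaving out the intervals over a start, 56 of 128 distal intervals (43.8%) passed, against 31.2% of all distal ones. The limit is not scaled for length. Median length was 577.5 bp in the distal intervals of the 5 genes and 463 bp in all distal ones. The median distance from a start was 78.6 kb, against 25.3 kb over all intervals, and 41.7% lay over 100 kb away, against 21.7%. The rule assigns every interval between neighbouring genes to the nearer start, so genes with distant neighbours collect more. The 77 intervals within 100 kb of a start included 73 distal ones, of which 36 (49.3%) passed the count limit, against 32.2% of all distal intervals at such distances. Beyond 100 kb, 20 of 55 (36.4%) passed, against 28.0%.

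**Figure D1:**
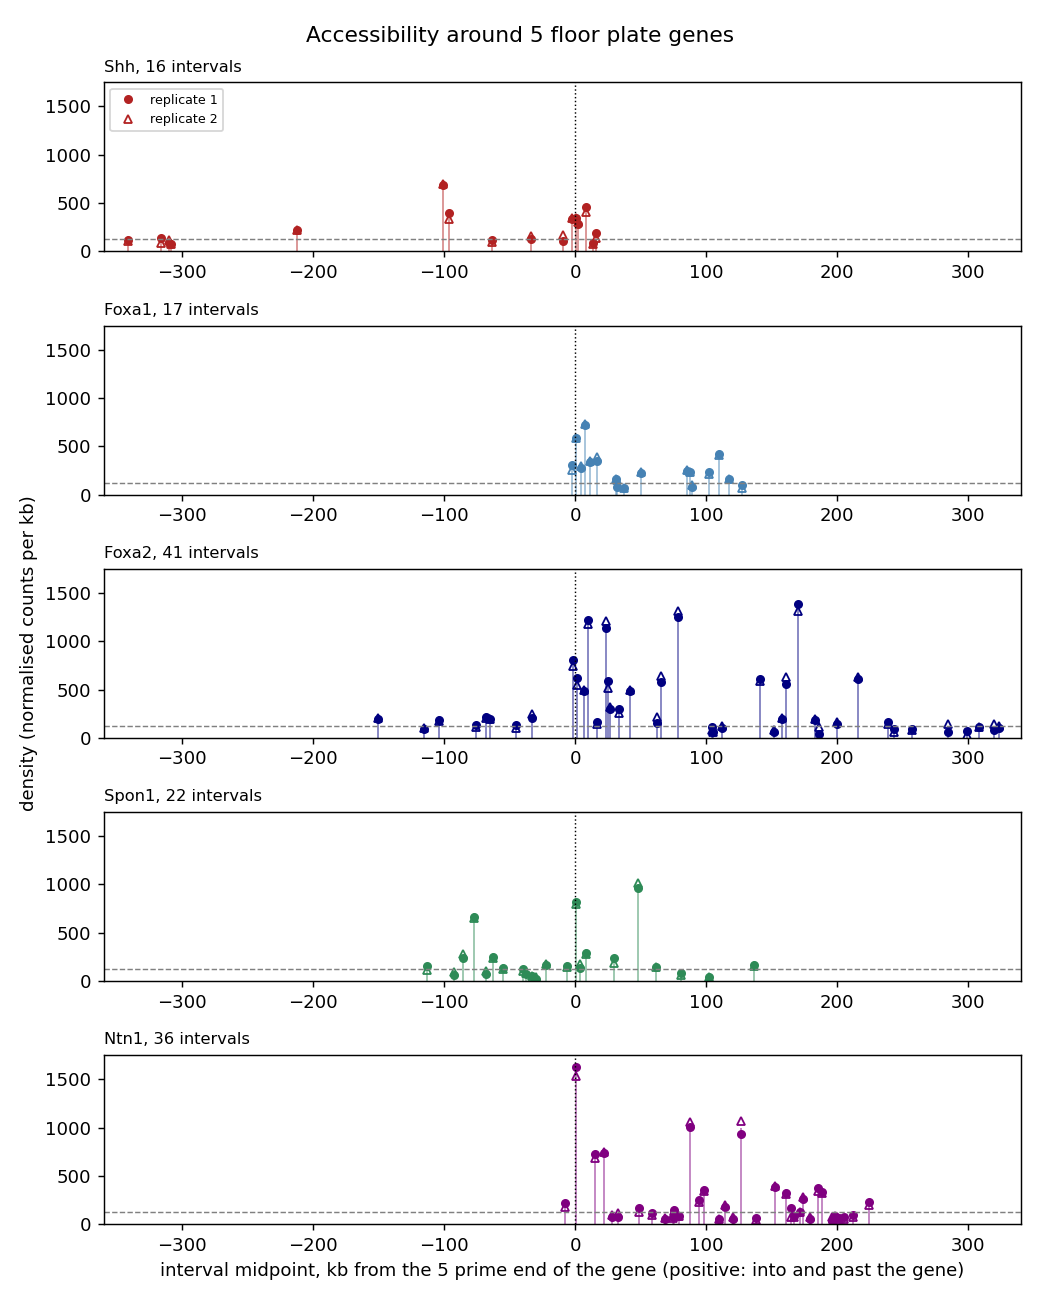
Density (normalised counts per kb) of each interval against the distance of its midpoint in kb from the 5 prime end of the gene, positive into and past the gene, for replicate 1 (circles) and replicate 2 (triangles). The dashed line is the median of all distal intervals, 124. The densest intervals of Foxa2 and Ntn1 reach above 1000 and those of Shh and Foxa1 reach 694 and 723.

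Shh, the secreted ligand, was the only one of the 5 genes with no interval over a start. Its single annotated start is at chr5:28467256, and the nearest interval, chr5:28466695-28467157, ended 99 bp inside the gene and overlapped a coding exon and UTR. It held 162 and 160 counts in replicates 1 and 2, a density of 348 ± 3.26 (SD, n = 2). The densest Shh interval was not at the gene but 100.1 kb upstream, at chr5:28567398-28569134. It held 1201 and 1210 counts and had a density of 694 ± 3.26 (SD, n = 2), above 95.9% of all distal intervals. Its neighbour at chr5:28563382-28563891, 96.1 kb upstream, had densities of 402 and 335 in the 2 libraries. The second densest interval, chr5:28457920-28460280, covered coding sequence and had 456 and 405, which gave 430.3 ± 36.2 (SD, n = 2). These 3 intervals held 60.4% of the normalised counts of the locus.

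Farther upstream, Shh intervals were sparse. The farthest lay 341 kb upstream at chr5:28808082-28808775, with 81 and 75 counts and a density of 112 ± 6.18 (SD, n = 2). Of the 6 Shh intervals over 100 kb away, 1 passed the count limit, and it was the densest one. Of the 16 Shh intervals, 14 overlapped the annotated antisense transcript 9530036O11Rik, which extends over the upstream region. The counts carry no strand, so accessibility of the antisense gene and of Shh cannot be told apart.

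With no limit on distance, Foxa2 had the most intervals and the most summed counts of the 5 genes. Within 100 kb of a start it had 18 intervals, against 19 at Spon1. When the starts of noncoding genes also competed for intervals, 2 of the 41 stayed nearest to Foxa2, and 28 of the 132 to the 5 genes. Its interval over a start, chr2:148044426-148046692, held 1410 and 1238 counts, with densities of 622 and 546 and a mean of 584 ± 54.0 (SD, n = 2). It covered the inner start at chr2:148045948 and stopped 204 and 277 bp short of the outer starts. The next interval upstream, chr2:148048291-148049202, had 774 ± 46.2 (SD, n = 2). The outermost promoter thus lay in a gap between 2 intervals.

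The densest Foxa2 intervals were on the downstream side. The top one, chr2:147876296-147877719, lay 168 kb downstream and held 1978 and 1868 counts, a density of 1350.4 ± 55.4 (SD, n = 2), above 99.2% of distal intervals. The second, chr2:147968284-147969162, lay 76.8 kb away and had densities of 1247 and 1311. Next came chr2:148036831-148037220, which lay 8.73 kb away and had 1221 and 1182. All 3 were denser than the interval over the start in both libraries. Of the 40 distal Foxa2 intervals, 12 (30.0%) lay among the densest 10.0% of all distal intervals.

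Many of the Foxa2 intervals lay in the long intergenic noncoding RNA gene 9030622O22Rik, the downstream neighbour. They numbered 11 of 41, and 9 of the 11 passed the count limit. Their densities ran from 151 to 1279 with a median of 490.5. In all, 31 intervals lay downstream of Foxa2, those in the noncoding gene included, and 9 lay upstream. The farthest, chr2:147723176-147723439, was 323 kb downstream and had 27 and 33 counts. Intervals over 100 kb away held 40.6% of the counts of the locus, and 9 of those 23 passed the limit.

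Foxa1, the close relative of Foxa2, had fewer intervals, and 11 of its 17 (64.7%) passed the count limit. This was the highest share of the 5 genes with no limit on distance. Within 100 kb of a start the order turned, with 8 of 13 at Foxa1 and 13 of 18 at Foxa2. The interval over its start, chr12:57545053-57547288, held 1318 and 1313 counts and had a density of 588 ± 1.92 (SD, n = 2). The promoter printed above lay wholly inside it. The Foxa1 value fell between the Foxa2 values of the 2 libraries, so the starts of the 2 forkhead genes did not differ beyond the spread.

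The densest Foxa1 interval, chr12:57538484-57540117, lay 6.00 kb from the start, just past the end of the gene. It held 1172 and 1190 counts and had a density of 723 ± 7.37 (SD, n = 2). Behind it and the start interval came chr12:57436789-57437645, which lay 108 kb downstream inside the protein-coding gene Mipol1 and had 412 ± 4.36 (SD, n = 2). Mipol1, whose start is farther away, overlapped 8 of the 17 intervals, and 4 of these passed the limit. Only 1 Foxa1 interval lay upstream, at chr12:57549439-57549837, with 121 and 100 counts. The farthest was 126 kb downstream, at chr12:57419790-57420058, and held 27 and 17 counts.

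Ntn1, the netrin gene, held the densest of the 132 intervals. It has 3 annotated coding starts, and chr11:68399325-68400796 ended 27 bp inside the gene from the outer one at chr11:68400823. This interval held 2398 and 2255 counts and had a density of 1581 ± 69.6 (SD, n = 2), above 99.5% of distal intervals. By the strict rule it was distal, because it did not cover the start, and so it was ranked among distal intervals. Intervals over a start were denser, with a median of 799 over all of them. Among these, the start interval of the hedgehog pathway gene Sufu, with a similar 1574, lay above 87.2%. The 2 inner starts, at chr11:68386826 and chr11:68387012, were covered by chr11:68384627-68387488, which had densities of 723 and 684 and a mean of 704 ± 27.8 (SD, n = 2). The outer start region was therefore denser than the inner one in both libraries, by more than the spread.

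Within the 191 kb Ntn1 gene, introns held 24 intervals, and 8 of them passed the limit. The densest intronic ones were chr11:68312622-68313753, with 1035 ± 35.6 (SD, n = 2), and chr11:68273810-68275065, with 931 and 1069. Nearest to the starts, chr11:68378307-68379683 had 744 ± 11.9 (SD, n = 2). The 7 intervals past the 3′ end lay in the protein-coding gene Stx8 and none passed the limit, with 13 to 85 counts in either library. The farthest, chr11:68176645-68176846, was 210.0 kb from a start and had 46 and 40 counts.

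Spon1, the F-spondin gene, had the lowest share over the count limit, 7 of 22 (31.8%). The limit is not scaled for length, and the Spon1 intervals were the shortest. Their median length was 376.5 bp, against 557.5 bp at Shh and up to 643 bp at Foxa2. Per kb, the distal median of Spon1 (144) was above that of Ntn1 (121). The interval over its starts, chr7:113765696-113766918, held 1003 and 980 counts and had the highest density of the 4 intervals that cover a start, 811 ± 13.8 (SD, n = 2). When intervals within 1 kb of a start also counted, Ntn1 was higher, with 1142. The densest interval was in an intron 47.7 kb into the gene, chr7:113813897-113814698. It held 770 and 818 counts and had 990.0 ± 41.7 (SD, n = 2), so it exceeded the start interval in both libraries. On the other side, 77.2 kb upstream, chr7:113687971-113688823 had 661 ± 7.01 (SD, n = 2). These 3 held 63.1% of the counts of the locus.

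The remaining Spon1 intervals had densities of at most 288, and 4 of them passed the count limit. The lowest density of all 132, 35.4 ± 14.3 (SD, n = 2), was at chr7:113735921-113736315 with 10 and 18 counts. The farthest, chr7:113901755-113902620, was 136 kb into the gene and had 141 and 134 counts. Spon1 is 277 kb long, and 5 further intervals inside it were nearer to the start of Rras2 and so were not counted as its own. Of these, 3 passed the count limit.

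Across the genes, the order depended on what was measured. Summed normalised counts were highest at Foxa2, with 12966 ± 98.0, then Ntn1 with 11106 ± 63.7, Foxa1 with 4490.0 ± 11.5, Shh with 3991 ± 53.9 and Spon1 with 3724 ± 7.04 (SD, n = 2 each). Per kb of interval, Ntn1 and Foxa2 were close, with 411 ± 2.36 and 406 ± 3.07 normalised counts per kb (SD, n = 2 each), a ratio of 1.01. They were followed by Foxa1 with 358, Shh with 317 and Spon1 with 278, and all intervals together had 392. The ranges of the libraries did not touch between any neighbours in either order. All genes were measured in the same 2 libraries, which are too few for a permutation test between genes, so none was made.

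By the median density of distal intervals, the forkhead genes came first, in an order that depended on the assignment. Foxa1 had 233 ± 2.46 and Foxa2 191 ± 8.11, Shh had 162 ± 0.492, Spon1 144 ± 0.571 and Ntn1 121 ± 3.97 (SD, n = 2 each). Within 100 kb of a start, Foxa2 had 311 and Foxa1 238, so that their order turned. With the starts of all annotated genes, only 2 Foxa2 intervals and 4 Foxa1 intervals were left. The Foxa2 value was then 774, the density of chr2:148048291-148049202 alone, against 301 at Foxa1, so these are hardly medians. All distal intervals had a median of 124 ± 2.01 and the 128 of the 5 genes 160.1 ± 2.53 (SD, n = 2 each). Among the densest 10.0%, Ntn1 had 4 of its 35 distal intervals (11.4%), close to the share over all intervals, and 12 (34.3%) lay among the densest 25%. Shh, Foxa1 and Spon1 had 2 each among the densest 10.0%.

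**Figure D2:**
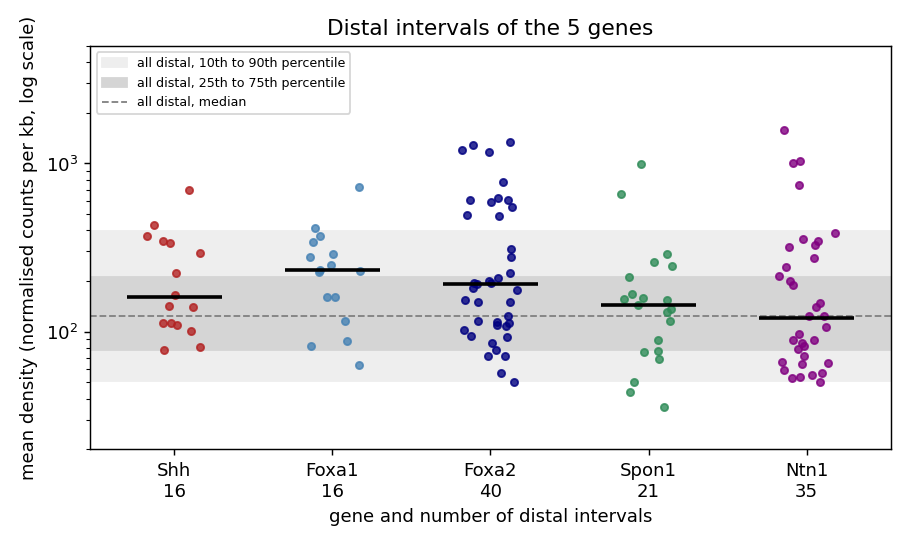
Mean density of each distal interval (normalised counts per kb, log scale) by gene, with the gene median as a black bar and the spread of all distal intervals in grey. The medians of Foxa1 (233) and Foxa2 (191) lie above that of all distal intervals (124), and the median of Ntn1 (121) lies at it although 3 of its intervals lie between 1000.0 and 1581.

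The replicates were compared next, since every value above rests on them. An exact binomial test, two-sided, asked whether the 2 counts of an interval split as the size factors predict. Adjusted by Benjamini-Hochberg over all 119502 intervals, it found 0 of the 132 with an adjusted p under 0.01, and 0% of all intervals. At an unadjusted p under 0.05, 10 of the 132 (7.58%) differed, against 7.84% of all intervals. This test compares 2 libraries and no condition. The lowest p among them, 6.61e-05 by the exact binomial test (0.12 adjusted), was at a weak Foxa2 interval, chr2:147747249-147748540, with 88 and 42 counts.

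Among the 60 intervals over the count limit, replicate differences were small. The largest were at chr2:147894295-147895944 near Foxa2, with 105 and 133 counts (log2 ratio 0.34), at chr11:68407903-68408577 upstream of Ntn1, with 150 and 121 (log2 ratio -0.31), and at the upstream Foxa1 interval (log2 ratio -0.27). The SD of the log2 ratio was 0.13 over these 60 and 0.14 over all intervals with such counts. The start interval of Foxa2 was lower in replicate 2 (unadjusted p = 0.00082 by the exact binomial test, 0.26 adjusted), and the Ntn1 intron at chr11:68273810-68275065 was higher there (0.0006 unadjusted and 0.23 adjusted).

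**Figure D3:**
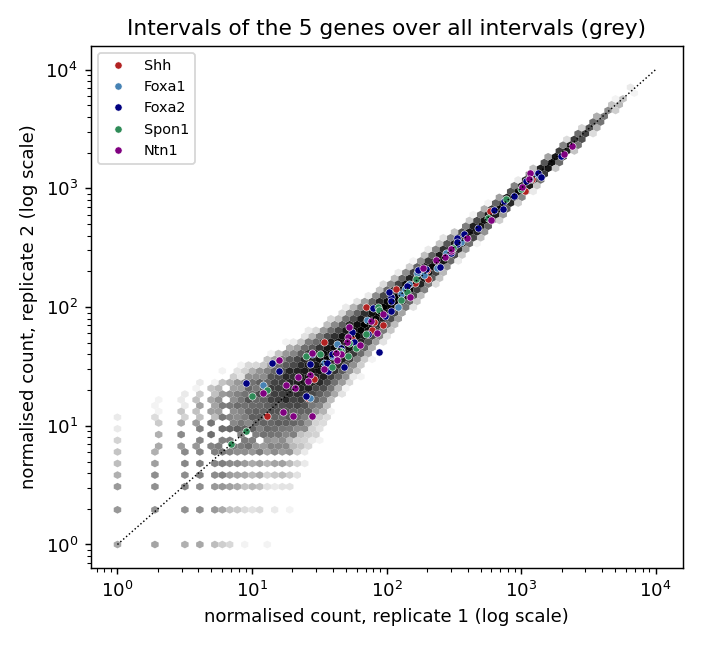
Normalised count of each interval in replicate 2 against replicate 1, both on log scales, with the 132 intervals coloured by gene over all intervals with counts in both libraries (grey, darker where more intervals lie). The coloured points follow the diagonal, and the Foxa2 interval with 88 and 42 counts lies farthest below it among those near 100.

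Short motifs were then searched in the central 300 bases of every interval, on both strands. They were TGTTTAC for forkhead factors, TGGGTGGTC for the GLI factors that act downstream of Shh, ACAATG for SOX factors and TAATTA for homeodomain factors. The others were the E-boxes CAGCTG and CATATG, and TCAAGTG and TTAAGTG for NKX2-2. No motif contains another. A match is a description of the sequence and not a site of binding.

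The forkhead letters were no more frequent at the centres of these intervals than elsewhere beyond counting error, but over whole intervals they were more frequent. They occurred in 7 of 132 (5.30%, 95% Wilson interval 2.59 to 10.5%), against 4.38% of all intervals. Among distal intervals the central shares were 4.69% and 4.74%. Over the whole intervals there were 0.236 matches per kb, against 0.139, and among distal intervals 0.248 against 0.158. At least 1 match was held by 20 of 132 intervals (15.2%), against 8.72%. This share is not scaled for length, and median length was 606 bp in the 132 and 525 bp in all intervals. By gene, the rate was 0.558 per kb at Foxa1, 0.313 at Foxa2, 0.148 at Ntn1, 0.0794 at Shh and 0.0746 at Spon1. The higher rates thus lay at the 2 forkhead genes, with 7 and 10 matches, and Shh and Spon1 had 1 each. The rates were not tested.

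The intervals that passed the count limit and had a central forkhead match are shown with 10 bases on either side, because FOXA2 is itself one of the 5 genes. Each is written on the strand that reads TGTTTAC, with the match in capitals.
Foxa1, start interval, chr12:57546236-57546262, plus strand: gccctcacttTGTTTACaaagcagtat
Foxa1, in Mipol1, chr12:57496580-57496606, minus strand: aggcttttagTGTTTACacagtgttga
Foxa2, downstream, chr2:147886416-147886442, plus strand: gtgaatggtaTGTTTACattgtgtggg
Ntn1, intron, chr11:68286415-68286441, minus strand: aaggctaacaTGTTTACagaggaaagg
Spon1, intron, chr7:113902272-113902298, plus strand: gaacagttacTGTTTACagatgtgagc

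The Foxa2 interval with this match had densities of 552 and 626, a mean of 589 ± 52.1 (SD, n = 2), and lay 159 kb downstream of the gene. The others apart from the Foxa1 start were lower, with 229 ± 4.53 in Mipol1, 190.4 ± 18.1 in the Ntn1 intron and 159 ± 5.81 in the Spon1 intron (SD, n = 2 each). Off the centre, matches also lay in the densest Foxa1 interval and in 2 of the densest Ntn1 introns.

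The GLI letters were found at the centre of 3 of the 132 intervals (2.27%, 95% Wilson interval 0.776 to 6.47%), against 0.473% of all intervals. The 3 were at Foxa1, Foxa2 and Ntn1. The Shh and Spon1 intervals held none. Over whole intervals, 3 of 132 (2.27%) held the letters, against 0.954% of all intervals, which lies inside the same Wilson interval, and the rates were 0.0308 and 0.0143 matches per kb. With 3 matches the share rests on few intervals, and it was not tested. The central matches are shown with the match in capitals, on the strand that reads TGGGTGGTC.
Foxa1, upstream, chr12:57549658-57549686, plus strand: tgctcggtgcTGGGTGGTCggagttcctc
Foxa2, in 9030622O22Rik, chr2:148022232-148022260, minus strand: tttttcctgcTGGGTGGTCagagggaaag
Ntn1, intron, chr11:68306201-68306229, minus strand: ggaaaccggcTGGGTGGTCtgcccagatt

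The Foxa1 interval with the GLI letters had 121 and 100 counts, and its density was 277 ± 37.4 (SD, n = 2). The Foxa2 one, chr2:148022043-148022223, had 107 and 93 counts and a density of 553 ± 55.0 (SD, n = 2). It is 181 bp long, and the match lay in the central 300 bases but past the edge of the interval. The Ntn1 one had 94 and 88 counts, below the limit. Of the other 6 motifs, homeodomain (9.09%) and TCAAGTG (5.30%) were above the share in all intervals (7.0 and 4.08%), and SOX, both E-boxes and TTAAGTG were below it. For each of these 6 the share in all intervals lay inside the Wilson interval of the 132.

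**Figure D4:**
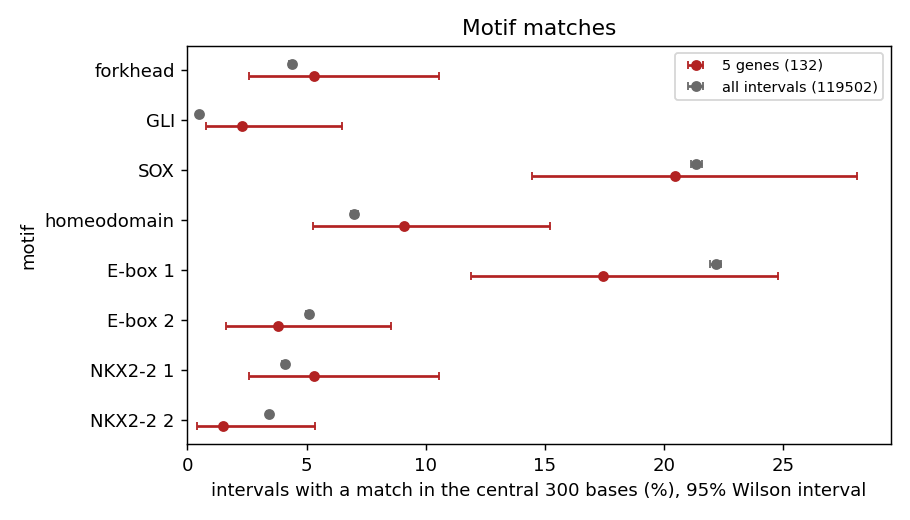
Share of intervals with each motif in the central 300 bases (%), with 95% Wilson intervals that cover counting error only, for the 132 intervals of the 5 genes (red) and all 119502 intervals (grey). The GLI share is 2.27% against 0.473%, although over whole intervals the share of all intervals, 0.954%, lies within the red interval. For the other 7 motifs the grey point lies within the red interval. Over whole intervals, which are not drawn, the forkhead share was 15.2% against 8.72%, with no scaling for length.

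Start densities were set beside those of related genes, on the scale of normalised counts per kb. The 4 starts with an interval, from 584 at Foxa2 to 811 at Spon1, lay below the median of 881 over all genes with such an interval. For Ntn1 this turned with the rule: the interval that ended 27 bp from its outer start had 1581, and with intervals within 1 kb of a start included the value for Ntn1 was 1142. Of 17 other ventral and floor plate genes, 16 had a start interval, from 236 at Corin, a floor plate protease, to 1212 at Foxj1, a factor of ciliated cells. The starts of 9 of these 16 were denser than that of Foxa2. The p3 factors Nkx2-2 and Nkx2-9 had 879 ± 27.5 and 942 ± 13.2 (SD, n = 2 each), and both were above the 4 intervals that cover a start in each library. Of the 358 intervals of this list, 142 (39.7%) passed the count limit, close to the 38.8% of all intervals.

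All 17 genes of the hedgehog pathway had a start interval. The lowest were the other ligands, Dhh with 254 ± 1.40 and Ihh with 297 ± 0.835, and the highest was Sufu, an inhibitor of the pathway, with 1574 ± 51.7 (SD, n = 2 each). The pathway inhibitor Ptch1 and the factor Gli1, both known targets of the signal, had 1335 ± 12.02 and 992 ± 5.39 (SD, n = 2 each). Of the 3 ligand genes, Shh thus had the most intervals, 16 against 3 for Ihh and 2 for Dhh, and no interval over a start. This last point rests on the strict rule: the Shh interval that ended 99 bp inside its start had 348 ± 3.26 (SD, n = 2). That was above the start intervals of Ihh and Dhh. Of the 244 intervals of the pathway, 108 (44.3%) passed the count limit, against 38.8% of all intervals.

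Among 12 netrin and spondin partners, 11 had a start interval, from 152 at Spon2, a relative of Spon1, to 1676 at Lrp8, a lipoprotein receptor. Of their 227 intervals, 72 (31.7%) passed the limit, against 38.8% of all intervals. All 7 genes of the motor neuron progenitor list had a start interval, from 656 at Nkx6-2 to 1452 at Nkx6-1. Of their 219 intervals, 118 (53.9%) passed, against the same 38.8%. This list also held Irx3, which the paper places in p2, another progenitor domain, and Sox2, which it describes as broadly expressed. Irx3 had 49 of the 219 intervals and 1411 at its start, and Sox2 had 77 and 862. Each of the 7 was above Foxa1 and Foxa2, and 5 of 7 were above Spon1. In distal intervals, the share over the limit was 43.8% for the 5 genes, against 31.2% of all distal intervals. It was 52.1% for motor neuron progenitors, 39.8% for the hedgehog pathway, 36.7% for ventral and floor plate genes and 27.9% for netrin and spondin partners. None of these lists was tested against another.

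**Figure D5:**
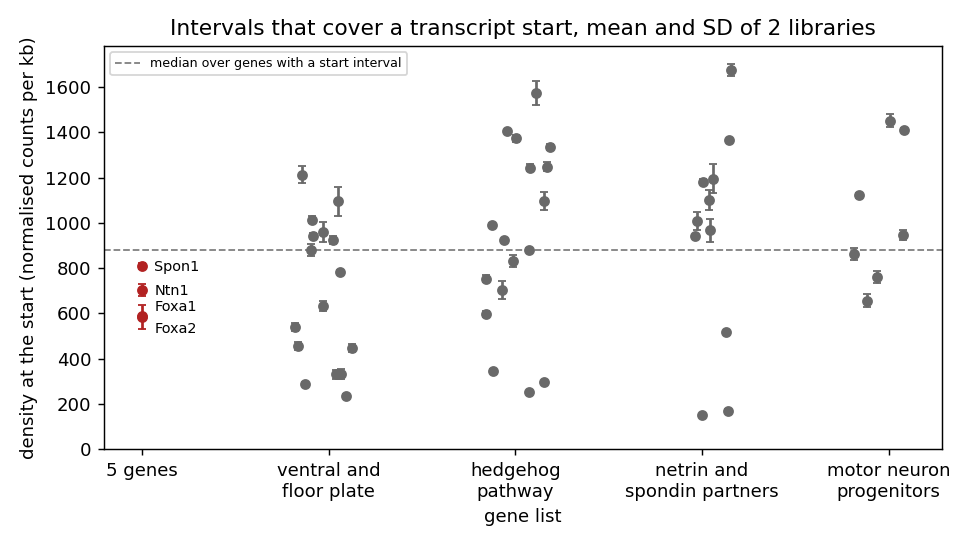
Density of the intervals that cover a start (normalised counts per kb, mean with SD over 2 libraries) for the 5 genes (red, Shh having none) and 4 lists of other genes (grey), with the median over genes with a start interval, 881, as a dashed line. The 4 red points lie between 584 and 811, below the line. Ntn1 is at 1142, above it, if intervals within 1 kb of a start are included. All 7 genes of the motor neuron progenitor list, which also holds Irx3 and Sox2, lie above Foxa1 and Foxa2.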

How the data were processed

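Live-cell ATAC-seq of mKate2-positive sorted cells gave 2 libraries of 1 group. The deposited table holds raw counts of fragments per consensus interval of mm10, which the authors made with featureCounts 2.0.1 on read pairs, with a fragment counted in each interval that holds at least a fraction of 0.2 of it. The study's methods describe peak calling by MACS and consensus intervals of replicated peaks, so weak open sites were left out, and a fragment can count more than once. The table also held 3 columns that belong to no sample of the series. They helped to define the intervals but were not used. The submitters' processing notes name DESeq2.

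Interval length in bp was taken from the deposited table. Normalised counts are counts over the size factor of the library (DESeq2 1.42.0), and a density is the normalised count per kb of length. The nearest transcription start was taken over protein-coding transcripts of protein-coding genes in GENCODE for mm10, and an interval was distal if it covered none. Mean ± SD is over the 2 libraries. A percentile of a distal interval is its rank among all distal intervals. Libraries were compared by a two-sided exact binomial test (the smaller tail doubled, SciPy 1.17.1) with Benjamini-Hochberg adjustment. It was checked on simulated counts that held counting error only, as the test assumes. That check does not cover spread beyond counting error, and 7.84% of all intervals had an unadjusted p under 0.05 by this test. Motif letters were read from the RefSeq sequence of GRCm38.p6 with pysam 0.24.0. Wilson intervals are at the 95% level. They cover counting error only, in the number of intervals with a match. Fragments carried no molecular identifiers.

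The 5 genes, the lists and the tests were chosen with earlier results of these data known. Every interval was counted, and those named were the intervals at a start, the nearest, the 3 densest and the farthest of each gene, the 3 with the largest replicate difference, and those over the count limit with a central forkhead or GLI match. Intervals outside this rule (such as the Shh interval far upstream with its neighbours, the fourth Ntn1 interval, the lowest of Spon1 and the weak Foxa2 interval with the lowest p) and genes of the lists other than those with the lowest and highest values were chosen after their values were seen. A gene that met the rule is not reported here. Genes with a similar pattern were not sought, because there was 1 condition. Alternatives covered the normalisation (edgeR 4.0.16 TMM or total counts), each library alone, the assignment of intervals, the count limit, low counts and the motif window. The fixed, antibody-sorted cells of the study were not analysed here.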

Additional observations from a re-analysis of the deposited data

How the results depend on the processing

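Values are called moved past 1 SD between the libraries, counts past 1.5 times, and shares outside their Wilson interval. The SDs are small, so small changes count. The 132 intervals became 28 when starts of all annotated genes were used and 77 within 100 kb of a start, as fewer intervals are assigned by construction, and the 60 over the count limit became 16 with all annotated genes. The distal median density of 160.1 became 168 with all annotated genes, 203 within 100 kb and 78.0 as counts per interval. The median density at starts of 654 became 1319.8 as counts per interval. At Ntn1 alone the start density of 704 became 1142 with intervals within 1 kb of the start. The summed density of 372 per kb became 367 with the 5 prime end of the whole gene and 426 within 100 kb. The forkhead share of 5.30% became 2.27% in the central 150 bases, against 2.20% of all intervals, and 0.236 per kb is a rate in another unit. Where values moved otherwise, the cause was not tested. Each library alone gave a distal median of 158 and 162, a start density of 635 and 673, a summed density of 371 and 374, and 59 and 60 intervals over the limit.

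Of the 49 alternatives for results over all 5 genes, 38 stayed within these limits and 11 moved, and 50 of 275 moved for single genes and intervals. Those that moved include changes of unit, to counts per interval or matches per kb, which move a value by construction. The order of the genes by summed density held in all alternatives run for it but one, where Spon1 passed Shh within 100 kb. Those alternatives were the normalisations, each library alone, the 5 prime end of the whole gene and the 100 kb limit. Summed density was not computed with all annotated genes. By distal median, Foxa2 passed Foxa1 within 100 kb and with all annotated genes, where its value was the density of a single distal interval. The order of Shh, Spon1 and Ntn1 changed in 4 alternatives. With all annotated genes Foxa2 fell from the most to the fewest intervals. No interval of the 132 differed between libraries by the adjusted test under any scaling. The design held a single group, so no paired comparison of conditions was possible. Intervals under about 10 counts are too shallow to rank.

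Alternatives with all transcript starts, with intervals inside the gene added and with intervals of at least 300 bases were chosen after seeing the data. They gave 128 and 137 intervals, and a forkhead share of 4.90%.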
